A study of Mus musculus and Acomys cahirinus with 25 samples.

Results

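The insulin-like growth factor (IGF) axis was followed in wounded skin as the transcripts of 9 genes. They were chosen by symbol, with earlier results of these data known: Igf1, the receptors Igf1r and Igf2r, and the binding proteins Igfbp2, Igfbp3, Igfbp4, Igfbp5, Igfbp6 and Igfbp7. All 9 had a row in each of the 25 count tables, among 24500 gene rows. The libraries came from dorsal skin after full-thickness wounding of laboratory mice, which form new hair follicles at the center of a large wound, and of the African spiny mouse (Acomys cahirinus), which forms them across the wound bed. Of the 13 laboratory mouse libraries, all at post-wound day (PWD) 14, 4 were of WT epidermis (2 from the wound center, 2 from the margin) and 9 of dermis (5 WT center, 2 WT margin and 2 center from K14-Cre-Twist1 mice). The spiny mouse gave 12 libraries, 6 per layer, with 1 or 2 for each day: unwounded skin (PWD0) or the whole wound on PWD14, PWD21 or PWD28. The center was a punch from the middle of the wound and the margin was the tissue left around it, and layers were separated by hand, after trypsin in the spiny mouse. Laboratory mice were C57Bl/6J, wild type Twist1+/+ or K14-Cre-Twist1 and younger than the spiny mice, which were WT, and both sexes were used. The K14 promoter drives Cre in keratinocytes, so the gene was deleted in the epidermis while the dermis was measured. The study drew 2 of the 5 WT center dermis libraries beside the margin libraries (called the margin set here) and the other 3 beside the knockout (the knockout set), and the comparisons kept to that division.

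Expression is given as CPM, a gene's reads over all gene reads of its library, scaled to a common total. The gene reads of a library numbered between 19413261 and 86532134 in laboratory mice and between 5669760 and 34751956 in spiny mice, so that 3 reads, taken as the smallest detectable amount, stood for at most 0.155 and 0.529 CPM. Such floors cover counting error only. Spiny mouse reads were aligned to the mouse genome, and 38.0% to 60.5% of their reads were set aside for low alignment quality, against 23.3% to 34.4% in laboratory mice, so levels were not compared between the species. Epidermis and dermis were told apart by their markers. The 10 keratinocyte genes of a marker list, such as Krt5 and Krt14, summed to between 154220 and 213194 CPM in laboratory mouse epidermis and to at most 4452 CPM in WT dermis. In the library labelled K14-Cre-Twist1 dermis replicate 2 the same sum was 34667 CPM, against 989.7 CPM in replicate 1 and 12.4 to 57.2 CPM in the WT dermis of the knockout set. This library stood apart from the others, and the knockout results are given with and without it. In bulk tissue, fewer cells of a type and less RNA per cell cannot be told apart.

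IGF1 is a secreted growth factor made largely by mesenchymal cells in skin, and it acts on epithelial and mesenchymal cells through the tyrosine kinase receptor encoded by Igf1r. The product of Igf2r, the cation-independent mannose 6-phosphate receptor, carries lysosomal enzymes and takes up IGF2 for degradation. The binding proteins hold IGFs outside the cell, prolong their life, and restrain or release them, and several also act without IGF. IGFBP3 and IGFBP5 form large complexes with IGF in blood, IGFBP6 prefers IGF2, and IGFBP7 binds IGFs weakly. On the mouse GRCm38 (mm10) assembly, Igfbp2 (chr1:72824503-72852474, plus strand) and Igfbp5 (chr1:72857932-72874884, minus strand) lie tail to tail with 5457 bases between them. The exons of Igfbp7 share 85 bases with those of Polr2b on the opposite strand. The spiny mouse libraries were not strand-specific, so that reads from these bases cannot be assigned to either gene there.

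The 250 bases upstream of the RefSeq start (GRCm38.p6) are shown for 3 members that differ in how they followed layer and region: Igf1 and Igfbp5, the members whose center-margin difference differed between the layers, and Igfbp3, which had no higher or lower call between the layers. Capitals mark CANNTG, the E-box to which basic helix-loop-helix factors such as Twist1 can bind.
Igf1, chr10:87860861-87861110, plus strand: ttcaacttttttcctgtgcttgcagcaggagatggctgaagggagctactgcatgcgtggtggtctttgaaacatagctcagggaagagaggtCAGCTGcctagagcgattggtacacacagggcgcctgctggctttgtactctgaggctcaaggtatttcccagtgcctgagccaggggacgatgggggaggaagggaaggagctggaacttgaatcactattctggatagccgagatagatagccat
Igfbp5, chr1:72874866-72875115, minus strand: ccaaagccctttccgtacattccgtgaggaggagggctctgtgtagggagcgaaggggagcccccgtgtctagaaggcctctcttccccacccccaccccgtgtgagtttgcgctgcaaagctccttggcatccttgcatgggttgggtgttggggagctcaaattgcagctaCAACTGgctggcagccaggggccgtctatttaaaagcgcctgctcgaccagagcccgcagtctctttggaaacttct
Igfbp3, chr11:7213924-7214173, minus strand: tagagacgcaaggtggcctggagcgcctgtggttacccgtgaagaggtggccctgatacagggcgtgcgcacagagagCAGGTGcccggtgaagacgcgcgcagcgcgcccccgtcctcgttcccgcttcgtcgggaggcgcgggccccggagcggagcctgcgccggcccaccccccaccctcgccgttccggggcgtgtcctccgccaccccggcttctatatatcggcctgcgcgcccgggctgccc
Each window held 1 CANNTG, which reads the same on both strands, and 66.2% of the 32851 RefSeq promoter windows cut to the same length held at least 1. None of the 3 held TATAAA on either strand, a motif present in 12.4% of all windows, and the motifs did not overlap. In the GENCODE M21 annotation Igf1 begins at chr10:87858265, before the window shown, so that window lies inside the annotated gene. Sequence upstream of that earlier start was not searched. The match is a description of these letters, and no factor's binding was measured.

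Most of the axis was transcribed in the dermis. Igf1, the ligand, had 6.57 and 5.97 CPM in the 2 epidermis center libraries and 0.397 and 2.39 CPM in the 2 margin libraries. In WT dermis it ranged from 431 to 683 CPM in the 5 center libraries, and stood at 1212 and 1235 CPM at the margin. No epidermis library came near any dermis library, and the dermis margin lay above every dermis center library. At the center, Igf1 was 59.7-fold lower in epidermis than in dermis of the margin set (log2 fold change -5.90, SE 0.17, n = 2 against 2, edgeR quasi-likelihood FDR 0.000165), and at the margin the log2 fold change was -8.79 (SE 0.66, FDR 8.02e-06), or -10.76 without epidermis margin replicate 2. In this and every other comparison of 2 libraries with 2 or 3, leaving out a library can leave an arm with 1, which is then assumed to vary like the other arm, so that the FDR of such fits rests on the spread of the other arm alone.

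The receptors followed the layers less closely. Igf1r, the signaling receptor, had 22.6 and 26.2 CPM in epidermis center, 39.2 and 26.1 CPM in epidermis margin, 89.0 and 57.7 CPM in dermis center of the margin set, and 59.0 and 52.3 CPM in dermis margin. The layers did not overlap in CPM, but the difference did not pass the test at the center (log2 fold change -0.81, SE 0.28, FDR 0.0585) or at the margin (0.07, SE 0.37, FDR 0.892). At the center the FDR was 0.0432 without dermis center replicate 1 (-0.40) and 1.09e-05 without replicate 2 (-1.08), where the epidermis pair alone gave the spread. Igf2r had 47.6 and 49.0 CPM in epidermis center and 238 and 183 CPM in dermis center, and was lower in epidermis by 1.34 on the log2 scale (fold change -1.34, SE 0.20, FDR 0.0037). At the margin Igf2r had 30.0 and 41.4 CPM in epidermis and 201 and 153 CPM in dermis (log2 fold change -1.49, SE 0.33, FDR 0.00417). Without dermis margin replicate 1 the margin value was -1.20, with an FDR of 0.0848.

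Among the binding proteins, Igfbp4, Igfbp5, Igfbp6 and Igfbp7 were dermal in both regions. Igfbp5 had 24.1 and 15.5 CPM in epidermis center against 1057 and 1388 CPM in dermis center, 35.7-fold lower (log2 fold change -5.16, SE 0.30, FDR 0.00026). Igfbp6 was all but absent from epidermis, with 0.280 and 0.289 CPM at the center and 0.227 and 1.39 CPM at the margin, against 54.9 to 102 CPM in the dermis of the same comparisons. Its log2 fold change was -7.21 (SE 0.40, FDR 0.00024) at the center and -5.58 (SE 0.61, FDR 5.04e-05) at the margin, or -7.62 without epidermis margin replicate 2. Igfbp4, whose product binds IGF until the protease PAPPA cleaves it, had 31.3 and 26.1 CPM in epidermis center and 277 and 487 CPM in dermis center (log2 fold change -2.94, SE 0.29, FDR 0.00103). Igfbp7 had 78.3 and 73.0 CPM against 662 and 543 CPM (log2 fold change -2.22, SE 0.18, FDR 0.000607). The fold was larger for Igfbp5 and Igfbp6 than for Igfbp4 and Igfbp7 in both regions, and these 4 genes had no overlap between the layers.

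Igfbp2 and Igfbp3 reached dermal levels in some epidermis libraries. Igfbp3 had 175 and 170.4 CPM in epidermis center and 356 and 527 CPM in dermis center (log2 fold change -0.56, SE 0.20, FDR 0.0607). At the margin it had 476 and 139.9 CPM in epidermis and 348 and 260.4 CPM in dermis (log2 fold change 0.88, SE 0.53, FDR 0.195). The epidermis margin libraries lay on either side of those of the dermis margin. Without epidermis margin replicate 2 the Igfbp3 value at the margin was 1.46 (FDR 0.0024), and without replicate 1 it was -0.36 (FDR 0.336). Igfbp2 had 134 and 125 CPM in epidermis center, between the 93.4 and 256 CPM of dermis center (log2 fold change 0.37, SE 0.44, FDR 0.50), whereas at the margin the 10.7 and 53.8 CPM of epidermis lay under the 302 and 149 CPM of dermis (log2 fold change -2.02, SE 0.61, FDR 0.0197). That call was lost without dermis margin replicate 1 (log2 fold change -1.33, FDR 0.0749), and the value was -1.32 and -3.59 without epidermis margin replicates 1 and 2. At the center Igfbp2 passed without dermis center replicate 2 (1.26, FDR 2.25e-07) and Igfbp3 without replicate 1 (-0.77, FDR 8.23e-06).

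In sum 6 of the 9 members were lower in epidermis at the center, as were 26.8% of all tested genes, and 7 at the margin, as were 26.8% of all tested genes. No member was higher, where 29.3% and 20.9% of all tested genes were. The median log2 fold change of the members was -2.22 and -2.44, against 0.05 and -0.16 for all tested genes. The TMM normalization raised the median of all genes by 0.78 and 0.82 (log2) in these comparisons relative to CPM, and without it Igf1r was also lower at the center (log2 fold change -1.59, FDR 0.00446), as was Igfbp3 (-1.35, FDR 0.00408). Among all called genes, the share higher in epidermis was 52.3% at the center and 43.8% at the margin with TMM, and 28.4% and 20.5% without. Epidermis reads were paired-end and dermis reads single-end in laboratory mice, so that layer and read type cannot be told apart.

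**Figure D1:**
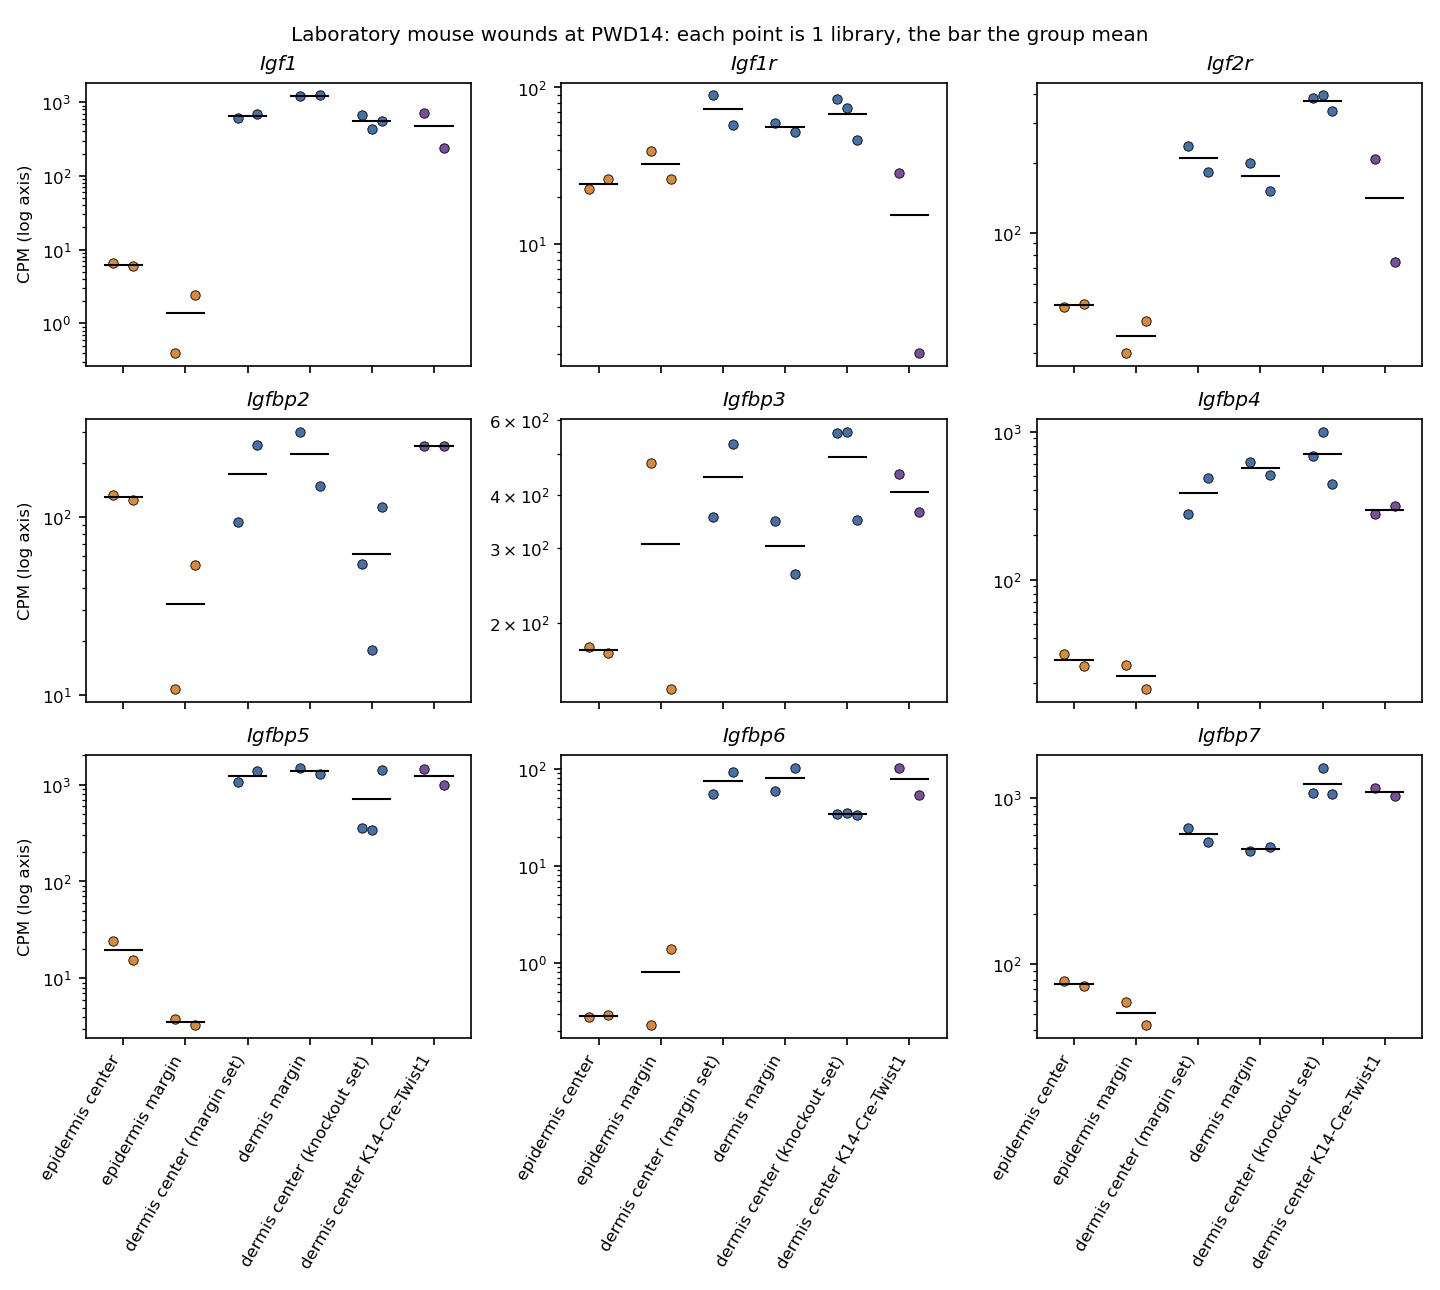
CPM of the 9 genes (1 panel each, log axis) in laboratory mouse wounds at PWD14, with 1 point per library and a bar at the group mean; orange is epidermis, blue WT dermis and purple K14-Cre-Twist1 dermis. Igf1, Igfbp4, Igfbp5, Igfbp6 and Igfbp7 lie far lower in epidermis, Igfbp2 and Igfbp3 overlap between the layers, and 1 of the 2 knockout libraries has 2.03 CPM of Igf1r.

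The wound center, where hair follicles form, was compared with the margin within each layer. In the epidermis no member passed an FDR under 0.05, where 1.24% of 14165 tested genes did. Igf1, Igfbp2 and Igfbp5 had an unadjusted p-value under 0.05, all with higher values at the center, where 23.5% of all tested genes had such a p-value. Igfbp5 had 24.1 and 15.5 CPM at the center and 3.77 and 3.27 CPM at the margin (log2 fold change 2.42, SE 0.37, FDR 0.0536). Igfbp2 had 134 and 125 CPM against 10.7 and 53.8 CPM (log2 fold change 1.91, SE 0.63, FDR 0.16), and Igf1 had 6.57 and 5.97 CPM against 0.397 and 2.39 CPM (log2 fold change 1.83, SE 0.59, FDR 0.157). For all 3 genes the center libraries lay above both margin libraries, and the margin libraries differed more from each other than the center libraries did for Igf1 and Igfbp2. The other members were Igf1r (log2 fold change -0.52), Igf2r (0.33), Igfbp3 (-0.97), Igfbp4 (0.26), Igfbp6 (-1.87) and Igfbp7 (0.47), with FDR from 0.271 to 0.633.

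Marker lists of 5 other cell types were also higher in both center libraries. The 10 fibroblast genes, Col1a1 and Pdgfra among them, summed to 4176 and 5045 CPM in the epidermis center libraries and to 641 and 1964 CPM in the margin libraries, against 74175 to 146036 CPM in dermis. The 5 endothelial genes summed to between 19.6 and 29.9 CPM at the center and between 1.57 and 6.63 CPM at the margin. The adipocyte list had 430.3 to 554 CPM against 35.5 to 66.9 CPM, with Adipoq, Plin1 and Lep at 0 in all 4 libraries, the mural list 169 to 185 CPM against 96.4 to 115 CPM, and the macrophage list 110.5 to 113 CPM against 72.8 to 77.8 CPM. The median mural gene had 1.60 and 1.75 CPM at the center and at most 0.416 CPM at the margin, so few genes carried that sum. The Schwann cell list was lower at the center, at most 0.832 CPM against 1.19 to 1.22 CPM, and the keratinocyte, melanocyte and skeletal muscle lists overlapped. The part of these cells in the result was not tested. With either epidermis margin library left out, the members did not all keep their direction. Igfbp3 was at 0.27 without replicate 1 and -1.61 without replicate 2, Igfbp4 at 0.63 and -0.041, and Igfbp6 at -2.31 and 0.17. Igfbp2 was then at 1.23 without replicate 1 and 3.44 without replicate 2, Igf1 at 1.36 and 3.83, and Igfbp5 at 2.57 and 2.25 on the log2 scale.

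In the dermis the ligand went the other way. Igf1 had 609 and 683 CPM at the center and 1212 and 1235 CPM at the margin, with no overlap (log2 fold change -0.83, SE 0.18, FDR 0.0752). No member passed an FDR under 0.05 here either, where 0.85% of 14698 tested genes did. Igf1 and Igfbp3 had an unadjusted p-value under 0.05, as did 15.8% of all tested genes. Igfbp3 had 356 and 527 CPM at the center and 348 and 260.4 CPM at the margin (log2 fold change 0.61, SE 0.23, FDR 0.243). Igfbp5 had 1057 and 1388 CPM at the center and 1492 and 1277 CPM at the margin, which overlapped (log2 fold change -0.10, SE 0.21). Igfbp4 had a log2 fold change of -0.49 (SE 0.25) and Igfbp7 of 0.38 (SE 0.19), each without overlap, and Igf1r, Igf2r, Igfbp2 and Igfbp6 overlapped between center and margin. The Igf1 difference passed with DESeq2 (FDR 6.84e-08), the likelihood ratio test (FDR 0.00578) and a minimum of 10 counts in every library (FDR 0.0448). Keratinocyte genes summed to 421 and 607 CPM at the center and to 2212 and 4452 CPM at the margin of these dermis libraries, and Schwann cell genes to 85.6 and 104 CPM against 296 and 403 CPM. The adipocyte (109 to 138 against 179 to 363 CPM), melanocyte (2.31 to 3.35 against 8.35 to 14.7 CPM) and skeletal muscle lists (at most 0.206 against 1.67 to 5.47 CPM) were also lower at the center and the endothelial list was higher (719.8 to 798 against 632 to 692 CPM), while the fibroblast, macrophage and mural lists overlapped. The median adipocyte gene had at most 0.793 CPM in these libraries, and none of them held a read of Lep. The part of these cells in the result was not tested.

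The test of the difference between the layers is the interaction of layer and region. Igf1 and Igfbp5 passed it with a higher value, as did 3.34% of 15531 tested genes. Of all 540 called genes, 96.1% had a higher value, so nearly every call shared this direction. Marker lists that differed between center and margin in each layer are given above, and their part in the interaction was not tested. For Igf1 the center-margin log2 fold change was 2.83 higher in epidermis than in dermis (SE 0.56, FDR 0.0198), and for Igfbp5 it was 2.66 higher (SE 0.43, FDR 0.00806). The median of all tested genes was 0.31 and that of the members 0.24. Igfbp2, with 2.36 (SE 0.87, FDR 0.205), and Igfbp3, with -1.42 (SE 0.65, FDR 0.321), did not pass. The Igf1 call rested on few libraries: leaving out either epidermis center library, either dermis center library or either dermis margin library gave values between 2.63 and 2.89 with FDR from 0.0645 to 0.102, and without epidermis margin replicate 2 it was 4.82 (FDR 0.00245), where Igfbp2 (3.92, FDR 0.0231) and Igfbp3 (-2.06, FDR 0.0134) also passed. Igfbp5 lost the call without epidermis center replicate 1 (2.30, FDR 0.0579) and without dermis center replicate 1 (2.38, FDR 0.058).

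**Figure D2:**
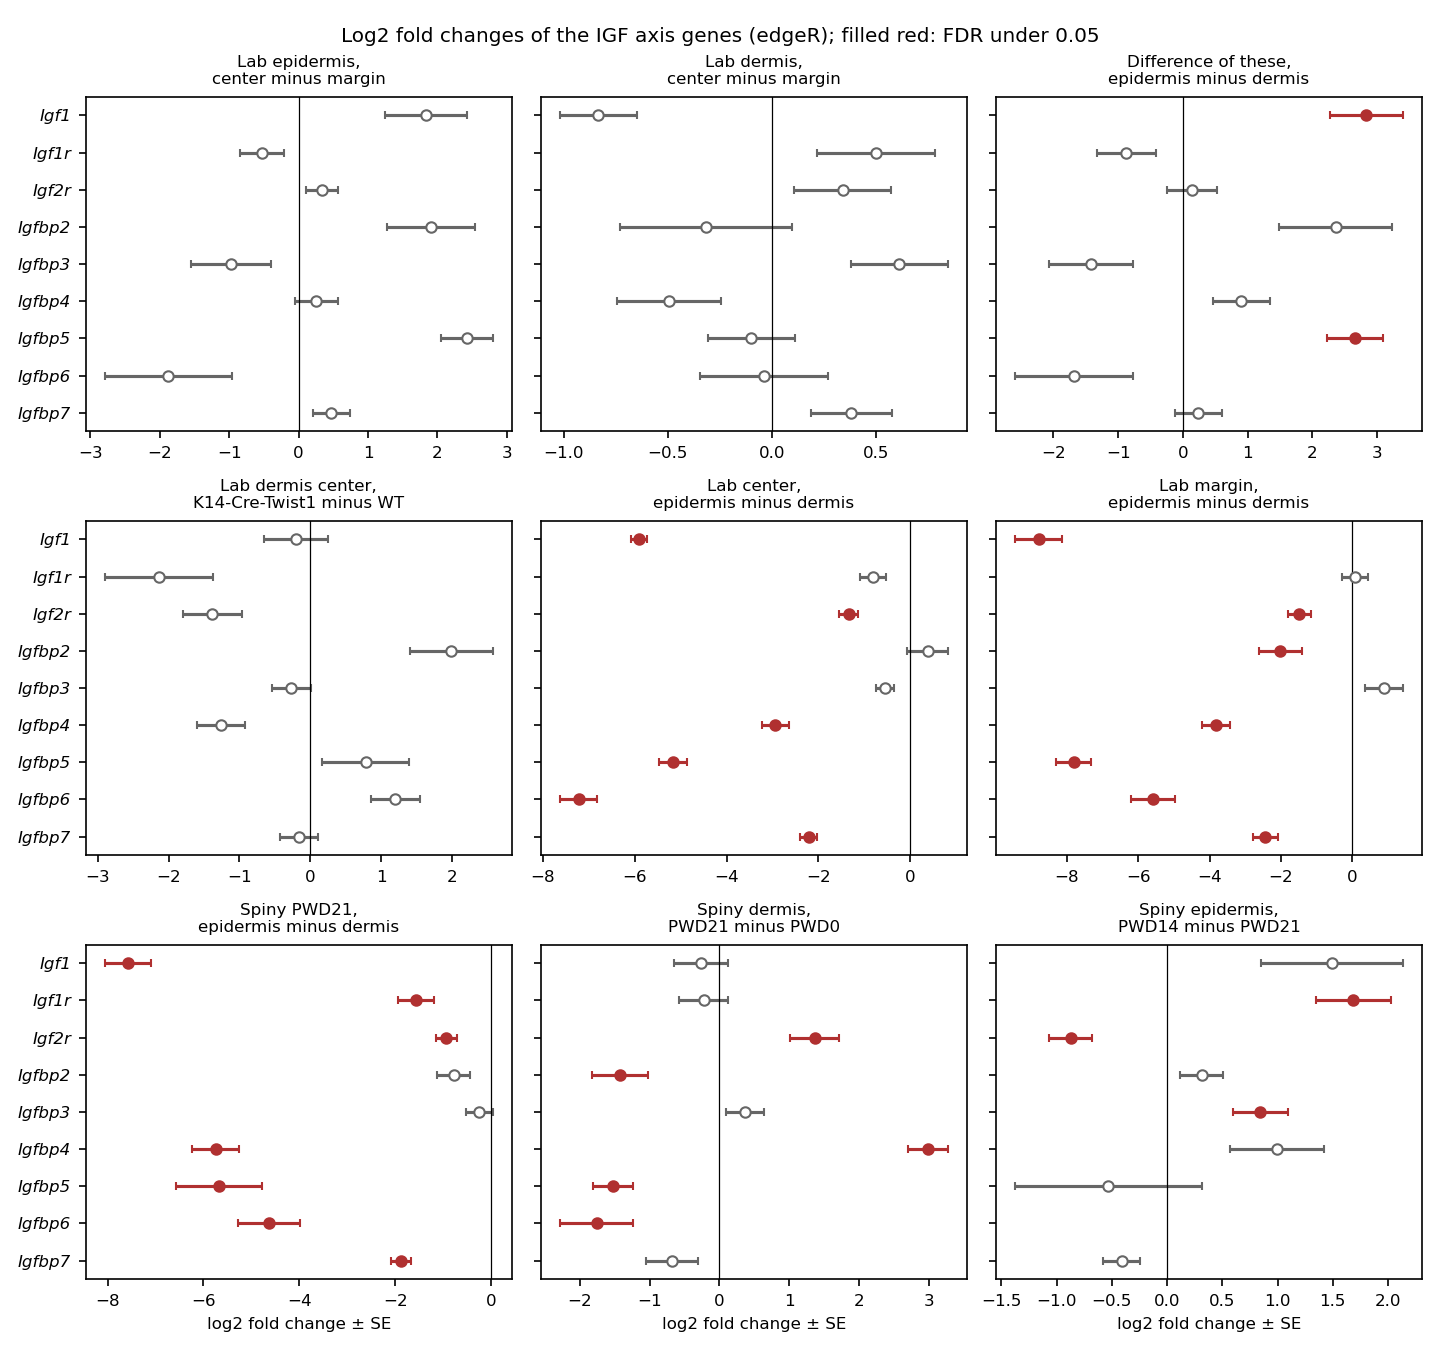
Log2 fold change with its SE (x axis, different in each panel) of the 9 genes in the 9 comparisons, with filled red points for an FDR under 0.05 and open grey points otherwise; Igfbp6 was not tested in spiny mouse epidermis. The layer panels hold most of the red points, while the 2 center-margin panels and the knockout panel hold none.

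In the dermis under an epidermis without Twist1, Twist1 itself had 73.4 and 44.0 CPM, against 36.3 to 105 CPM in the 3 WT libraries of the knockout set. The dermis is not the deleted layer, so this does not check the label. No member passed an FDR under 0.05 in the knockout comparison, where 0.0565% of 14163 tested genes did. Igf1r, Igf2r, Igfbp2, Igfbp4 and Igfbp6 had an unadjusted p-value under 0.05, as did 11.5% of all tested genes, with FDR from 0.271 to 0.364 and no overlap between the 2 knockout and the 3 WT libraries.

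Both receptors lay below the WT libraries of the knockout set. Igf1r had 28.7 and 2.03 CPM in the knockout libraries and 83.9, 74.3 and 46.4 CPM in WT (log2 fold change -2.13, SE 0.76). The second of these values rests on 44 reads. Igf2r had 209 and 74.7 CPM against 387, 396 and 337 CPM (log2 fold change -1.38, SE 0.41). The 2 WT center libraries of the margin set, which were not in the comparison, had 89.0 and 57.7 CPM of Igf1r, above both knockout libraries, but 238 and 183 CPM of Igf2r, with the 209 CPM of knockout replicate 1 between them. Without knockout replicate 2, which carried the keratinocyte transcripts, the log2 fold changes were -1.21 for Igf1r and -0.80 for Igf2r (FDR 0.666 and 0.541), and without knockout replicate 1 they were -5.11 and -2.37 (FDR 0.000853 and 0.000488). Both genes are long, and the longest of 5 classes of genes by exon length had a median of -0.31 in knockout replicate 2 and of -0.09 in replicate 1 relative to the mean of the WT libraries (log2 of CPM + 1). Against the same mean, Igf1r stood at -4.47 in replicate 2 and -1.18 in replicate 1, the 1.47 and 3.35 percentile of that class, and Igf2r at -2.30 and -0.83, the 9.80 and 8.37 percentile. The macrophage list was lower in the knockout libraries (3453 to 4508 against 4855 to 5888 CPM) and the Schwann cell list higher (59.4 to 63.9 against 24.7 to 51.4 CPM), and the melanocyte list was at 0 against 0.403 to 2.62 CPM. The part of these transcripts, of keratinocyte transcripts and of gene length in the result was not tested.

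Igfbp2 and Igfbp6 had higher values and Igfbp4 lower values in the knockout than in these 3 WT libraries, without passing the test. Igfbp2 had 249.7 and 252 CPM in the knockout and 54.1, 17.9 and 114 CPM in WT (log2 fold change 1.99, SE 0.58), but the 2 WT libraries of the margin set had 93.4 and 256 CPM. Igfbp4 had 275 and 315 CPM against 685, 999 and 442 CPM (log2 fold change -1.26, SE 0.34), with 277 and 487 CPM in the margin set. Igfbp6 had 102 and 53.6 CPM against 33.9, 35.2 and 33.2 CPM (log2 fold change 1.20, SE 0.34), with 54.9 and 92.8 CPM in the margin set. The 3 WT libraries of the knockout set lay apart from the other 2 WT center libraries for Igf2r, Igfbp6 and Igfbp7. Keratinocyte genes summed to 421 to 607 CPM in the margin set and to 12.4 to 57.2 CPM in the knockout set. The fibroblast and Schwann cell lists were also higher in the margin set. Its macrophage, endothelial, adipocyte and skeletal muscle lists were lower, and the mural and melanocyte lists overlapped. The study's controls for the transgenic mice were wild type Twist1+/+, so the sets may also differ in strain. The part of these differences was not tested. Once all 5 WT center libraries were counted, Igf2r, Igfbp2, Igfbp4 and Igfbp6 overlapped between knockout and WT, and Igf1r did not. Igf1 (712 and 236 CPM against 667, 431 and 558 CPM), Igfbp3, Igfbp5 and Igfbp7 overlapped between the groups from the start. Igf1 had a log2 fold change of -0.21, which was 0.40 without knockout replicate 2 and -1.28 (FDR 0.0191) without replicate 1. Igfbp2, Igfbp4 and Igfbp6 kept their sign without knockout replicate 2, at 2.01, -1.32 and 1.62, with FDR of 0.541, 0.541 and 0.0615.

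In spiny mouse skin the ligand was again dermal. Igf1 ranged from 0.205 to 1.16 CPM over the 6 epidermis libraries, on 2 to 21 reads each, and in the dermis had 140.4 and 96.6 CPM at PWD0, 139 CPM at PWD14, 144 and 73.7 CPM at PWD21, then 42.0 CPM in the PWD28 library. The days from PWD0 to PWD21 overlapped in the dermis, and the single PWD28 library lay below them. At PWD21, where each layer had 2 libraries of the same read type, Igf1 was 191-fold lower in epidermis (log2 fold change -7.58, SE 0.47, FDR 1.38e-05). Igf1r had 9.34 and 5.99 CPM in epidermis and 18.5 and 31.3 CPM in dermis (log2 fold change -1.56, SE 0.37, FDR 0.00792), and Igf2r 68.3 and 73.5 CPM against 125 and 168 CPM (log2 fold change -0.93, SE 0.22, FDR 0.00787).

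Of the binding proteins, Igfbp4 (log2 fold change -5.75, SE 0.49), Igfbp5 (-5.67, SE 0.89), Igfbp6 (-4.63, SE 0.66) and Igfbp7 (-1.88, SE 0.22) were lower in spiny mouse epidermis at PWD21, with FDR from 5.15e-05 to 0.00113. Igfbp5 had 5.73 and 0.400 CPM in these epidermis libraries, the second on 7 reads, and its value was -8.77 without replicate 1 and -4.83 without replicate 2. Igfbp6 had 31 and 2 reads in them, and its value was -7.04 and -3.97 in the same 2 fits. Igf1 and Igfbp4 were at -8.21 and -6.75 without epidermis PWD21 replicate 1. Igfbp3 had 122 and 78.6 CPM in epidermis and 151 and 110.3 CPM in dermis, which overlapped (log2 fold change -0.25, SE 0.28, FDR 0.467). Igfbp2 had 39.9 and 40.7 CPM against 47.6 and 102 CPM (log2 fold change -0.78, SE 0.35, FDR 0.0881), and passed without dermis PWD21 replicate 1 (-1.28, FDR 0.000309). In all 7 of the 9 members were lower in epidermis, as were 33.5% of 14966 tested genes, and the members' median was -1.88 against -0.06 for all tested genes. TMM moved the median of all genes by 0.12 here. The shortest of 5 length classes of genes, which holds Igfbp2, Igfbp6 and Igfbp7, had a median log2 fold change of 0.44. The longest class, which holds Igf1, Igf1r and Igf2r, had one of -0.44. The classes of Igfbp3, Igfbp4 and Igfbp5 had medians of 0.13, -0.07 and -0.22. Reads set aside for low alignment quality made up 52.59% and 50.03% in epidermis and 44.78% and 38.01% in dermis. The part of gene length and of alignment quality was not tested. Keratinocyte genes summed to 39165 to 83313 CPM in the spiny mouse epidermis libraries and to 688 to 7828 CPM in the dermis libraries.

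**Figure D3:**
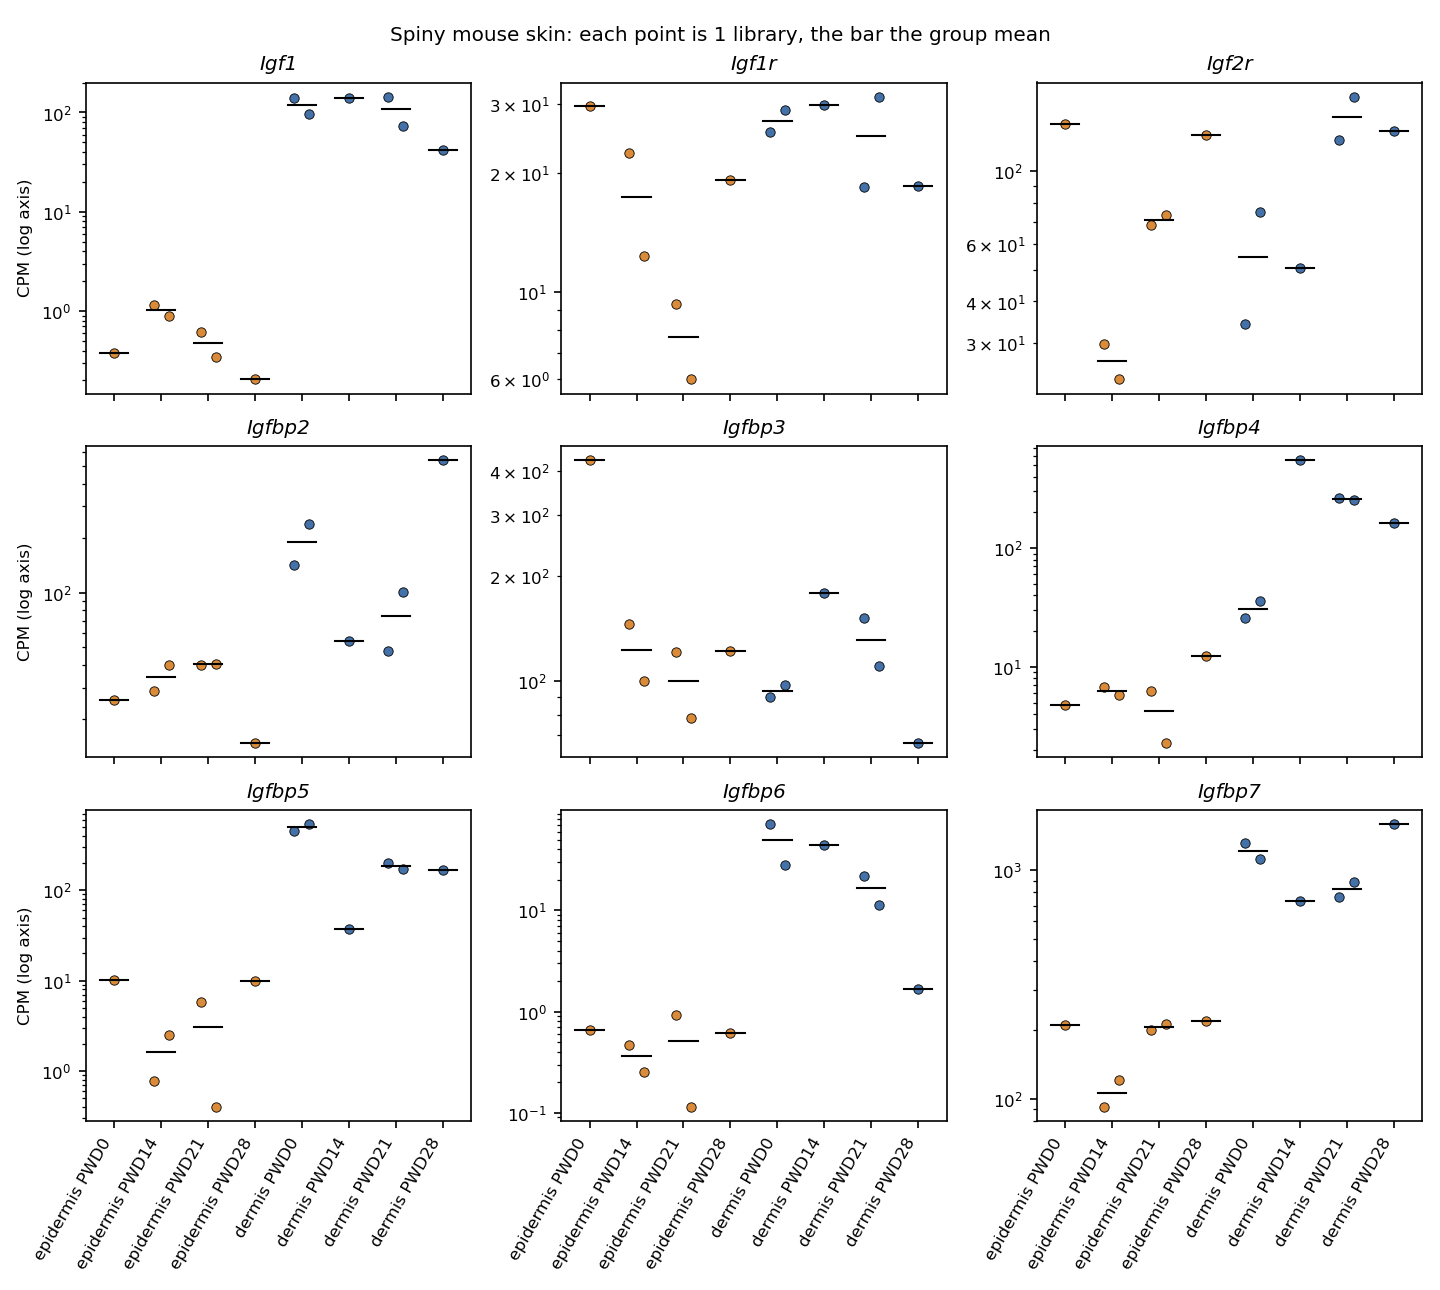
CPM of the 9 genes (1 panel each, log axis) in spiny mouse epidermis (orange) and dermis (blue) by PWD, with 1 point per library and a bar at the group mean. In the dermis Igfbp4 is at 25.8 and 35.7 CPM at PWD0 and at 161 to 546 CPM in the wound, while Igfbp5 is highest at PWD0; days with a single point have no replicate.

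Between unwounded dermis and PWD21 wound dermis of the spiny mouse, Igfbp4 rose and Igfbp2, Igfbp5 and Igfbp6 fell. Igfbp4 had 25.8 and 35.7 CPM at PWD0 and 266 and 254 CPM at PWD21, a 7.93-fold rise (log2 fold change 2.99, SE 0.28, n = 2 against 2, FDR 0.000409). The PWD14 library had 546 CPM and the PWD28 library 161 CPM, so that every wound library lay above both unwounded libraries. Igfbp4 kept its call with each of the 4 libraries left out in turn.

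Igfbp5 went the other way, with 455 and 539 CPM at PWD0 and 201 and 172 CPM at PWD21 (log2 fold change -1.52, SE 0.29, FDR 0.00715). It had 37.7 CPM in the PWD14 library and 166 CPM in the PWD28 library. Igfbp2, its neighbour on the chromosome, had 142 and 239 CPM at PWD0 and 47.6 and 102 CPM at PWD21 (log2 fold change -1.42, SE 0.40, FDR 0.0328), and then 539 CPM in the PWD28 library, the highest of the 12 spiny mouse libraries. Igfbp6 had 71.1 and 28.4 CPM at PWD0 and 21.9 and 11.3 CPM at PWD21 (log2 fold change -1.76, SE 0.52, FDR 0.0397), with 44.7 CPM at PWD14 and 1.66 CPM, on 17 reads, at PWD28. These 3 genes had no overlap between PWD0 and PWD21. Igf2r rose, from 34.0 and 75.1 CPM to 125 and 168 CPM (log2 fold change 1.36, SE 0.36, FDR 0.0253), while Igf1 (-0.27, SE 0.39), Igf1r (-0.22, SE 0.35), Igfbp3 (0.37, SE 0.28) and Igfbp7 (-0.68, SE 0.37) did not pass the test.

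In this comparison 5 members passed the test, as did 26.2% of 14481 tested genes. Igfbp6 lost its call without PWD0 replicate 1 (log2 fold change -0.75, FDR 0.192). Without PWD21 replicate 1 only Igfbp4 kept an FDR under 0.05, with Igf2r at 1.61 (FDR 0.0614), Igfbp2 at -0.94 (0.209), Igfbp5 at -1.58 (0.0795) and Igfbp6 at -2.24 (0.0763). Without PWD21 replicate 2 Igfbp4 and Igfbp2 (-2.10, FDR 0.029) kept it, with Igf2r at 1.10 (0.173), Igfbp5 at -1.43 (0.113) and Igfbp6 at -1.36 (0.228). The shortest of 5 length classes of genes, which holds Igfbp2, Igfbp6 and Igfbp7, had a median log2 fold change of -0.75 and the longest class, which holds Igf2r, Igf1 and Igf1r, one of 0.47. The classes of Igfbp4 and Igfbp5 had medians of 0.10 and 0.26. Keratinocyte genes summed to 7828 and 6163 CPM at PWD0 and to 688 and 1245 CPM at PWD21, and adipocyte genes to 871 and 900 CPM against 119 and 247 CPM. The Schwann cell (205 to 259 against 157 to 184 CPM) and skeletal muscle lists (200.4 to 472 against 105 to 142 CPM) were also higher at PWD0. Fibroblast genes summed to 67613 and 99986 CPM at PWD0 and to 119736 and 152249 CPM at PWD21, and endothelial genes to 70.4 and 145 CPM against 275 and 296 CPM, so that both were higher in the wound, as Igfbp4 was, while the macrophage, mural and melanocyte lists overlapped. Reads set aside for low alignment quality made up 60.46% and 55.21% at PWD0 and 44.78% and 38.01% at PWD21. Gene reads numbered 5669760 and 6804714 at PWD0 and 21927269 and 34751956 at PWD21. The part of gene length, of alignment quality, of read depth and of these cells in the result was not tested.

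In spiny mouse epidermis, 8 of the 9 members had enough counts to be tested between PWD14 and PWD21. Igf1r and Igfbp3 were higher at PWD14 and Igf2r was lower, where 23.4% and 23.2% of 12889 tested genes were higher and lower. Igf1r had 22.6 and 12.3 CPM at PWD14 and 9.34 and 5.99 CPM at PWD21 (log2 fold change 1.69, SE 0.34, FDR 0.00223), with 29.6 CPM in the PWD0 library and 19.2 CPM in the PWD28 library. Igf2r had 29.6 and 23.2 CPM at PWD14 and 68.3 and 73.5 CPM at PWD21 (log2 fold change -0.87, SE 0.20, FDR 0.00427), and 139 and 129 CPM in the PWD0 and PWD28 libraries. Both receptors were thus lower in the wound at PWD21 than in the single PWD0 and PWD28 libraries, but in the opposite order between PWD14 and PWD21.

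Igfbp3 overlapped in CPM, with 146 and 100.2 CPM at PWD14 and 122 and 78.6 CPM at PWD21 (log2 fold change 0.85, SE 0.25, FDR 0.0165), after 429.9 CPM in the PWD0 library. The TMM normalization raised the median of all genes by 0.55 (log2) here, with 50.2% of all called genes higher at PWD14 against 18.9% without it, and without it the Igfbp3 value was 0.29 (FDR 0.32). The Igfbp3 call was also lost without PWD14 replicate 1 (0.50, FDR 0.0772) and without PWD21 replicate 2 (0.54, FDR 0.154). Igfbp7 had 91.9 and 121 CPM at PWD14 and 200.5 and 213 CPM at PWD21 (log2 fold change -0.41, SE 0.17, FDR 0.0632), and was lower at PWD14 without TMM (-0.96, FDR 0.00126). Igfbp4 (log2 fold change 0.997, SE 0.42, FDR 0.0738), Igfbp2 (0.31, SE 0.20), Igfbp5 (-0.53, SE 0.84) and Igf1 (1.49, SE 0.64, FDR 0.0761) did not pass. With PWD14 replicate 2 left out, 5 members and 6635 genes passed, against 3 members and 6002 genes with it, the members now including Igfbp4 (1.17, FDR 0.0332) and Igfbp7 (-0.58, FDR 0.0162). Without PWD21 replicate 1 the Igfbp4 value was 2.01 (FDR 0.006) and Igfbp5 turned to 2.61 (FDR 0.0555). The 4 adipocyte genes summed to 6302 and 5160 CPM at PWD14 and to 1347 and 1050.1 CPM at PWD21 in these epidermis libraries, although their median was at most 0.191 CPM and Plin1 or Lep was at 0 in each. The fibroblast (267 to 304 against 308 to 517 CPM), macrophage (27.0 to 34.1 against 51.8 to 59.0 CPM), melanocyte (9.22 to 15.4 against 15.8 to 29.4 CPM), Schwann cell (0.543 to 1.21 against 3.43 to 4.02 CPM) and skeletal muscle lists (20.2 to 24.5 against 40.3 to 47.9 CPM) were lower at PWD14, and the keratinocyte, endothelial and mural lists overlapped. The shortest of 5 length classes of genes, which holds Igfbp2 and Igfbp7, had a median log2 fold change of 0.55. The longest class, which holds Igf1, Igf1r and Igf2r, had one of -0.21, and the class of Igfbp3 one of -0.01. Reads set aside for low alignment quality made up 59.51% and 59.65% at PWD14 and 52.59% and 50.03% at PWD21. The part of these cells, of gene length and of alignment quality in the result was not tested.

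Binding proteins were compared with each other per length, as CPM per kb of exon in the mouse annotation. On this scale Igfbp7 was the most abundant of the 6 in all 9 laboratory mouse dermis libraries, in all 6 spiny mouse dermis libraries and in all 6 spiny mouse epidermis libraries. It made up 38.1% to 71.4% of their summed level in laboratory mouse WT dermis center, 35.7% and 41.8% at the margin, and 70.3% to 81.2% in spiny mouse dermis. Laboratory mouse epidermis differed by region, with Igfbp2 largest in both center libraries (35.4% in each) and Igfbp3 largest in both margin libraries (71.2% and 38.9%). In spiny mouse epidermis the share of Igfbp3 was 41.8% in the PWD0 library, 33.2% and 20.6% at PWD14, 16.9% and 11.2% at PWD21, then 16.7% in the PWD28 library. The summed level of the 6 genes was 115 to 213 CPM per kb in laboratory mouse epidermis and 1000.2 to 1765 CPM per kb in dermis. By CPM, without division by length, Igfbp5 was the largest in 6 of the 9 laboratory mouse dermis libraries and Igfbp3 in all 4 epidermis libraries, and in spiny mouse epidermis Igfbp3 was the largest in 2 of the 6 libraries. No test was run on these shares.

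**Figure D4:**
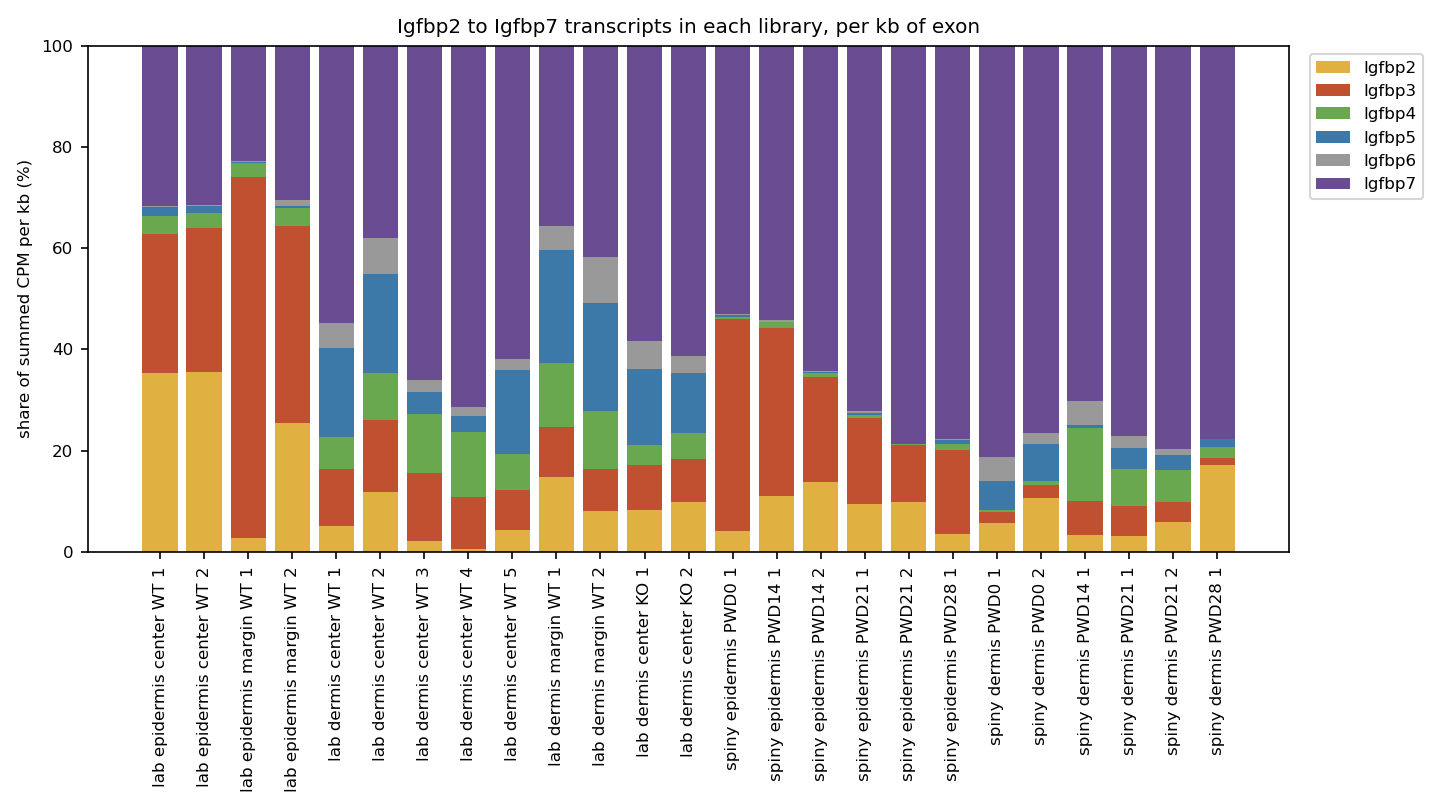
Share (%) of each binding protein gene in the summed CPM per kb of Igfbp2 to Igfbp7, with 1 bar per library. Igfbp7 is the largest share in every dermis bar, and Igfbp2 and Igfbp3 together exceed it in the laboratory mouse epidermis bars.

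Beyond the 9 members, 38 other genes of the pathway were followed as a list. In laboratory mice 10 of 33 tested list genes were higher and 12 lower in epidermis at the center, where 29.3% and 26.8% of all tested genes were. At the margin 8 of 33 were higher and 12 lower, where 20.9% and 26.8% of all tested genes were. In spiny mice at PWD21, 3 of 34 were higher and 19 lower, where 29.4% and 33.5% of all tested genes were. Igf2, the fetal ligand, had 0.309 to 0.794 CPM in laboratory mouse epidermis and 33.1 to 199 CPM in dermis (log2 fold change -7.79, SE 0.62, at the center, and -6.20, SE 0.60, at the margin). Grb10, an adaptor that restrains signaling from the insulin and IGF1 receptors, had 10.9 and 11.2 CPM in epidermis center. The 5 WT dermis center libraries had 423 to 517 CPM of it. Layer tests at the center used only the dermis libraries of the margin set. Grb10 was lower in epidermis in that test (log2 fold change -4.75, SE 0.16) and at the margin (-7.15, SE 0.45). Grb10 was the only 1 of 35 tested list genes to pass the interaction of layer and region (2.42, SE 0.39, FDR 0.00733), in the same direction as Igf1 and Igfbp5 and as 3.34% of all tested genes. Of all genes called in the interaction, 96.1% had that direction. Grb14, a related adaptor, was lower in epidermis at the center (-4.46, SE 0.52) and Pappa2, a protease of binding proteins, at the margin, where both epidermis libraries had 0 reads of Pappa2 and the dermis a mean of 1.73 CPM. In neither center-margin comparison and not in the knockout did a list gene pass, and 10 of 33, 7 of 34 and 3 of 34 had an unadjusted p-value under 0.05 there, as did 23.5%, 15.8% and 11.5% of all tested genes.

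In spiny mouse dermis 9 of 34 tested list genes were higher and 1 lower at PWD21 than at PWD0, where 26.2% of all tested genes passed in either direction and 45.9% of these were higher. The list had a median log2 fold change of 0.46, against 0.03 for all tested genes and 0.47 for the longest of 5 length classes of genes. The part of gene length in the list was not tested. Pappa, whose protein cleaves IGFBP4, had 2.94 and 6.35 CPM at PWD0 and 31.6 and 43.9 CPM at PWD21 (log2 fold change 2.88, SE 0.48, FDR 0.00423). Grb10 had 68.8 and 95.8 CPM against 499 and 540 CPM (2.52, SE 0.34, FDR 0.00179). Igf2bp3, an RNA-binding protein named for its binding to Igf2 mRNA, had 1.62 and 1.94 CPM against 47.4 and 48.9 CPM (4.65, SE 0.38, FDR 0.000287), with 41.1 CPM in the PWD14 library and 10.2 CPM in the PWD28 library. Pappa, Grb10 and Igf2bp3 thus rose together with Igfbp4. At PWD21 Igf2bp3 (-6.81, SE 0.31), Grb10 (-8.64, SE 0.35) and Igf2 (-6.68, SE 0.45) were lower in epidermis than in dermis. Igfbp1, the liver binding protein, had 0 reads in every laboratory mouse library and at most 0.441 CPM in the spiny mouse libraries. In spiny mouse epidermis, 8 of 31 list genes were higher and 6 lower at PWD14 than at PWD21, where 23.4% and 23.2% of all tested genes were. The 3 with the largest log2 fold changes were Igf2bp2 (2.70, SE 0.72, FDR 0.0101), Igf2 (2.15, SE 0.62, FDR 0.0145) and Insr, the insulin receptor (-1.65, SE 0.38, FDR 0.0051).

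The genes most like Igf1 and each binding protein were found by Pearson correlation of log2(CPM + 1) over the 13 laboratory mouse and, separately, the 12 spiny mouse libraries, among 12615 genes and ranked by the smaller of the 2 values. Libraries of 1 layer share most of these differences, so the values largely describe layer. For Igf1 they were Gpx7 (r = 0.987 and 0.988), Gng2 and Sgce, and for Igfbp4 they were Sept11 (0.977 and 0.978), Hic1 and Mmp14. Igfbp5 was most like Pmp22 (0.974 and 0.978), Cd34 and Lpar1, Igfbp6 most like Angptl1 (0.976 and 0.967), Snhg18 and Ms4a4a, and Igfbp7 most like Ramp2 (0.983 and 0.970), Enpp2 and Dysf. Likeness was weaker for Igfbp2 and Igfbp3, with Cyp27a1 (0.774 and 0.784), Fam174b and Sord for Igfbp2 and Aff1 (0.727 and 0.708), Tes and Trf for Igfbp3.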

How the data were processed

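For each of the 25 polyA RNA libraries the authors deposited raw read counts per gene symbol, aligned to mm10 with STAR (2.4.1d per the submitters' processing notes), counted with HTSeq 0.6.0 on RefSeq genes and not normalized. The strand option is not given in the sources used here. Each table held 24500 gene rows and 5 summary lines, which were left out. Groups came from the labels. The study's sample list gives every wounded spiny mouse library a slightly different day from the labels, and only the unwounded libraries have the same day in both. The days of the labels were kept. The division of the WT center dermis libraries came from the study's heat maps.

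Counts were tested in R 4.3.3 with edgeR 4.0.16 by the quasi-likelihood test, with TMM normalization, filterByExpr, a prior count of 0.125 and Benjamini-Hochberg adjustment (FDR) over all tested genes. The SE was obtained by dividing the absolute log2 fold change by the root of F. Printed CPM carry no TMM factor. Exon lengths came from GENCODE M21, matched by symbol for 23688 of the 24500 rows, and promoter windows from RefSeq, matched for all 9 members. The tests were checked on simulated counts. Replicate libraries differed by more than counting noise, with a chi-square per degree of freedom of 30.1 to 394 over 18 pairs. The labels do not say that replicates came from separate animals. The study describes the laboratory mouse epidermis and knockout replicates as biologically independent experiments, and its bulk RNA-seq as independent duplicates. The p-values measure the spread between libraries, which may be partly technical.

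The members and gene lists were chosen with earlier results of these data known. All members are named. List genes are named where they are among the 3 with the largest log2 fold change of those with an FDR under 0.05 in a comparison, and the levels of Igfbp1 and Twist1 are given besides. The alternatives tried were RLE size factors, no factor, keeping all genes, requiring 10 counts in each library, DESeq2 1.42.0, the likelihood ratio test, all 5 WT center dermis libraries, all libraries of a layer in 1 fit, each library left out, and, chosen after seeing the data, the quasi-likelihood estimate of edgeR 3.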

Additional observations from a re-analysis of the deposited data

Results flagged for a closer look

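The difference between center and margin itself differed between epidermis and dermis for Igf1, by 2.83 on the log2 scale (edgeR quasi-likelihood FDR 0.0198), and for Igfbp5, by 2.66 (FDR 0.00806), each as an interaction term over 8 libraries. The Igf1 call was lost with any 1 of 6 libraries left out (each center library of both layers and each dermis margin library, FDR 0.0645 to 0.102), and the Igfbp5 call without epidermis center replicate 1 (FDR 0.0579) or dermis center replicate 1 (FDR 0.058). In the WT center dermis, the single group with at least 4 libraries, Dixon's test set no library apart for any of the 9 genes. That test looks for a single outlying library and cannot show a split of the group into sets. The margin set and the knockout set of this group lay apart for Igf2r, Igfbp6 and Igfbp7.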

How the results depend on the processing

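Other settings moved the comparisons with few called genes most. In epidermis center against margin, the 176 genes and 0 members with an FDR under 0.05 became 1511 genes and 2 members with DESeq2, 1533 genes and 1 member with the likelihood ratio test, 0 genes with the edgeR 3 estimate (2893 at an unadjusted p under 0.05), and 1 member with all genes kept. In dermis center against margin, 125 genes and 0 members became 738 genes and 1 member with DESeq2, 886 and 1 with the likelihood ratio test, 54 genes with the edgeR 3 estimate, 323 with all 5 WT center libraries, 5 with all dermis libraries in 1 fit, and 1 member with at least 10 counts per library. In the knockout comparison, 8 genes and 0 members became 787 genes and 3 members with DESeq2, 214 genes with the likelihood ratio test, 2 with the edgeR 3 estimate, 190 with 5 WT libraries, 75 with 1 fit, and 0 with at least 10 counts (1273 at an unadjusted p under 0.05). In the interaction, 540 genes and 2 members became 204 genes with at least 10 counts, 1125 with DESeq2, 1485 with the likelihood ratio test, and 1 member with the edgeR 3 estimate, where Igf1 had 2.99 (FDR 0.113). Igfbp2 at the margin between layers was also lost with that estimate (-2.03, FDR 0.0843). Signs turned, with no call on either side, for Igfbp4 (0.20, 5 WT libraries) and Igfbp6 (0.0065, 1 fit) in dermis center against margin, Igfbp7 in the knockout (0.17, 5 WT libraries), Igfbp2 between layers at the center (-0.43, no factor), Igf1r between layers at the margin (-0.77, no factor, and -0.052, at least 10 counts), Igfbp2 in spiny mouse epidermis (-0.23, no factor) and Igf2r in the interaction (-0.0076, RLE, and -0.0046, DESeq2). The cause was not tested.

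With each library left out in turn, called genes and members ranged from 70 to 7405 and 0 to 6 in epidermis center against margin, 19 to 241 genes in dermis center against margin, 1 to 3353 and 0 to 3 in the knockout, 4899 to 10993 genes between layers at the center, 4508 to 7623 at the margin, 3470 to 6635 and 2 to 5 in spiny mouse epidermis, 1311 to 5118 and 1 to 5 in spiny mouse dermis, and 167 to 1343 and 0 to 4 in the interaction. Log2 fold changes that took both signs ranged, in epidermis center against margin, from -1.61 to 0.27 for Igfbp3, -0.041 to 0.63 for Igfbp4 and -2.31 to 0.17 for Igfbp6; in dermis center against margin, from -1.16 to 0.34 for Igfbp2, -0.26 to 0.060 for Igfbp5 and -0.41 to 0.36 for Igfbp6; and in the knockout, from -1.28 to 0.40 for Igf1 and -0.29 to 0.0054 for Igfbp7. Between layers they ranged from -0.14 to 1.26 for Igfbp2 at the center, from -0.33 to 0.31 for Igf1r and -0.36 to 1.46 for Igfbp3 at the margin, and from -0.66 to 0.085 for Igfbp3 in the spiny mouse. They ranged from -1.59 to 2.61 for Igfbp5 in spiny mouse epidermis, from -0.77 to 0.20 for Igf1 and -0.68 to 0.15 for Igf1r in spiny mouse dermis, and from -0.24 to 0.36 for Igf2r, -2.19 to 0.37 for Igfbp6 and -0.048 to 0.53 for Igfbp7 in the interaction. No paired analysis was possible because the labels give no replicate numbers that libraries share, and the numbers used here only name them.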
